A study of Medicago sativa with 24 samples.

Results

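TC174046, a homolog of the soybean gene for photosystem I subunit PsaD, and TC198142, similar to a chickpea gene for the precursor of the Rubisco small subunit, are 2 of the 41527 genes measured on the arrays. They were taken from the study's list of genes that differed between 2x and 4x hybrids and belonged to enriched ontology terms, and they were paired because their difference between the parents runs in opposite directions. The comparisons of the parents with each other, of the hybrids with the parents and of the 2x with the 4x hybrids were therefore used in choosing them, and these values are given as a description without a test. The study crossed 2 diploid Medicago sativa genotypes, the seed parent PG-F9 (subsp. falcata, which forms unreduced eggs) and the pollen parent 12P (selected for unreduced pollen from a coerulea by falcata cross), and compared their diploid (2x) and tetraploid (4x) full-sib progeny. The 4x progeny were S60-4x, S48-4x and S29-4x, the 2x progeny were S24-2x, S16-2x and S8-2x, and both were set against the parents PG-F9 and 12P, with all plants untreated and sampled as young leaves at the vegetative stage. Each genotype was a single plant propagated by cuttings, and each of its 3 biological replicates was a bulk of leaves from 2 cloned plants, so a difference between genotypes is a difference between single plants of the cross. The identifiers were looked up in a RefSeq gene table of M. sativa and 0 of 11 were found, so that names are those of the study's tables and no chromosome position is given.

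PsaD is a nuclear-encoded protein on the stromal side of photosystem I, where it helps to dock ferredoxin, the carrier that takes electrons from the photosystem towards carbon assimilation. The Rubisco small subunit is encoded in the nucleus by a family of closely related genes, is imported into the chloroplast and assembles with the chloroplast-encoded large subunit into the enzyme that fixes CO2. The products of both genes thus work in the chloroplast, 1 in the light reactions and 1 in the Calvin cycle. The probes were designed on M. truncatula sequences, and their match to the alleles of each genotype was not tested. Signals from close copies of the small subunit gene cannot be told apart here. Equal amounts of total RNA were compared, and in whole leaves fewer cells of a type and less RNA per cell cannot be told apart.

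The measure was the intensity of a gene on 1 array, quantile normalized and summarized over its probes by the authors, and transformed to log2 here. The 24 arrays had median intensities between 499.3 and 527.7. The background was taken as the highest of 11 negative control entries on an array, and 66.0% to 79.1% of genes exceeded it. This control had an intensity between 59.7 and 128, with the 3 highest values on the arrays of PG-F9. TC174046 was above it on all 24 arrays. TC198142 was above it on 15 arrays and below it on all arrays of S8-2x, S24-2x and PG-F9, so that these 3 genotypes have only an upper bound for this gene and no order among themselves.

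TC174046, the PsaD gene, had a high level in every 4x hybrid and PG-F9, and a low level in every 2x hybrid and 12P. Its intensity in S29-4x was 16359, 18409 and 14177 in replicates 1 to 3. In S48-4x it was 15849, 14432 and 13985, and in S60-4x 13277, 13931 and 15849. The arrays of the 3 4x hybrids overlapped with each other. The intensity in S8-2x was 6973, 6252 and 5802. In S16-2x it was 4534, 4850 and 4204, and in S24-2x 8329, 7792 and 8265. Each 2x hybrid had its own range, without overlap with the other 2x hybrids. The parent PG-F9 had 18177, 15158 and 16625, within the range of the 4x hybrids, and the parent 12P had 6550, 6632 and 5123, within the range of the 2x hybrids.

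TC198142, the Rubisco small subunit gene, had its highest mean in 12P, was measurable in the 4x hybrids and S16-2x, and was at background in PG-F9, S8-2x and S24-2x. Its level in 12P was high only relative to the other genotypes, since the array medians were between 499.3 and 527.7. The intensity in S29-4x was 374, 269 and 220. In S48-4x it was 499.8, 174 and 383, and in S60-4x 159, 185 and 187. All 9 arrays of the 4x hybrids were above background, and replicate 2 of S48-4x was low for its genotype. The intensity in S8-2x was 28.5, 23.7 and 38.3. In S16-2x it was 102, 218 and 315, and in S24-2x 39.7, 29.3 and 25.3. Only S16-2x among the 2x hybrids was above the negative controls, and its replicate 1 was nearest to its own highest control of 83.0. The parent PG-F9 had 80.8, 42.6 and 86.2, against highest controls of 105, 128 and 118 on the same arrays, and 12P had 367, 660.2 and 615.

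**Figure D1:**
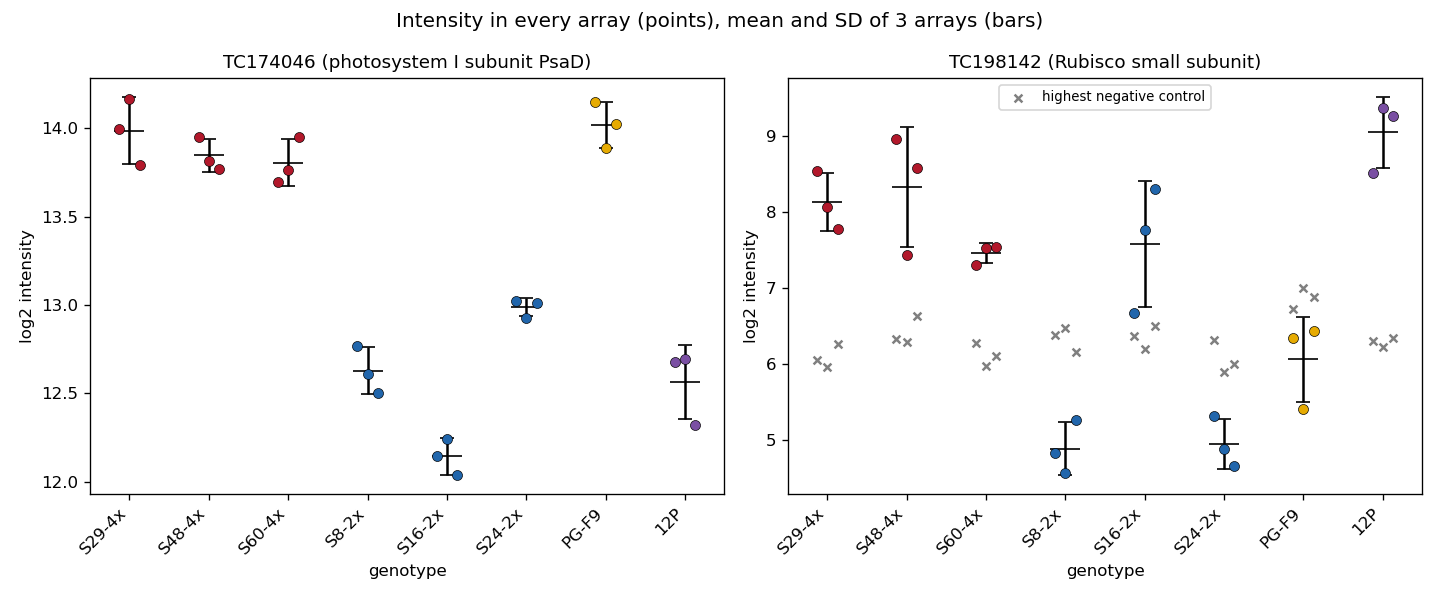
Log2 intensity of TC174046 (left) and TC198142 (right) in the 3 arrays of each genotype (points), with the mean and SD (bars), and for TC198142 the highest negative control of each array (crosses). For TC174046 the 4x hybrids and PG-F9 lie at 13.70 or above and the other genotypes at 13.02 or below, and for TC198142 all points of S8-2x, S24-2x and PG-F9 lie below the crosses of their arrays.

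The parents differed in opposite directions for the 2 genes. The log2 intensity of TC174046 was 14.02 ± 0.13 in PG-F9 and 12.57 ± 0.21 in 12P (SD, n = 3 arrays each), a log2 difference of 1.45 (SE 0.14) or 2.74-fold. That of TC198142 was 6.06 ± 0.56 in PG-F9, where all arrays were below background, and 9.05 ± 0.46 in 12P. The log2 difference was -2.99 (SE 0.42), and TC198142 was at least 4.53-fold lower in PG-F9 than in 12P when each array of PG-F9 was set to its highest negative control. This is how bounds are given throughout. The arrays of PG-F9 and 12P did not overlap for either gene, as for 40.3% of all genes, with PG-F9 higher for 19.5% and lower for 20.9%, and the median of PG-F9 minus 12P over all genes was -0.01.

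In the 4x hybrids the PsaD gene was at the level of PG-F9, its higher parent. The log2 difference from PG-F9 was -0.03 (SE 0.13) in S29-4x, -0.17 (SE 0.09) in S48-4x and -0.22 (SE 0.11) in S60-4x, and in all 3 the arrays overlapped with those of PG-F9. From 12P these hybrids differed by 1.42, 1.28 and 1.24 on the log2 scale without overlap, as did 34.7%, 38.8% and 39.6% of all genes in either direction. To place both genes on the same scale, the position of a hybrid was set to 0 at the mean of the lower parent and to 1 at the mean of the higher parent, on the log2 scale. For TC174046 the position was 0.98 (SE 0.09) in S29-4x, 0.88 (SE 0.06) in S48-4x and 0.85 (SE 0.07) in S60-4x. Replicate 2 of S29-4x was the only array of the 4x hybrids above all parental arrays.

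The 2x hybrids lay nearer to 12P, the lower parent for the PsaD gene, or below it. The position was 0.04 (SE 0.10) in S8-2x, whose arrays overlapped with those of 12P (log2 difference 0.06, SE 0.14). S16-2x was below both parents, with a position of -0.29 (SE 0.12) and all 3 arrays below the lowest parental array. All arrays of S16-2x were below those of both parents for 4.28% of all genes. S24-2x was between the parents, with a position of 0.29 (SE 0.06) and a log2 difference of 0.42 (SE 0.13) from 12P and -1.03 (SE 0.08) from PG-F9, without overlap in either case, as for 36.9% and 35.6% of all genes. The position of S16-2x was -0.41 without replicate 3 of 12P, and -0.15 on the linear scale.

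For the Rubisco small subunit gene the higher parent was 12P, and the 4x hybrids lay below its mean, on the log2 scale S29-4x and S48-4x nearer to 12P and S60-4x close to the middle. The position was 0.69 (SE 0.10) in S29-4x, 0.76 (SE 0.17) in S48-4x and 0.47 (SE 0.08) in S60-4x. The arrays of S29-4x and S48-4x overlapped with those of 12P, with log2 differences of -0.92 (SE 0.35) and -0.72 (SE 0.53), and those of S60-4x did not (-1.59, SE 0.28). All 3 were above PG-F9 without overlap, in comparisons where 37.7%, 35.9% and 41.2% of all genes did not overlap. The measured values of S16-2x, with a position of 0.51 (SE 0.18), lay between the parents without overlap with either. Of all genes, 34.5% did not overlap with 12P and 26.9% with PG-F9. Replicate 1 of S16-2x (102) was below the highest controls on the arrays of PG-F9 (105, 128 and 118), so its separation from PG-F9 is not determined. On the linear scale only S48-4x (0.59) of these 4 hybrids lay nearer to 12P. There the position was 0.46 in S29-4x, whose log2 ratio to the parental mean turned to -0.10 against a log2 difference of 0.58, and it was 0.22 in S60-4x and 0.30 in S16-2x. All these positions rest on PG-F9, a parent at background, and with values below background set to it the log2 positions were 0.27 in S60-4x and 0.33 in S16-2x.

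The lowest values of the Rubisco small subunit gene were those of S8-2x and S24-2x. Their log2 intensities were 4.89 ± 0.35 and 4.95 ± 0.33 (SD, n = 3 arrays each), against 6.06 ± 0.56 in PG-F9 and 9.05 ± 0.46 in 12P. Their measured values were below all parental arrays, which held with the hybrid lower for 3.73% of all genes in S8-2x and 6.52% in S24-2x. Since these 3 genotypes were at background and the negative controls were also higher on the arrays of PG-F9, the order of PG-F9 and these hybrids is not determined. The part of the background in it was not tested.

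**Figure D2:**
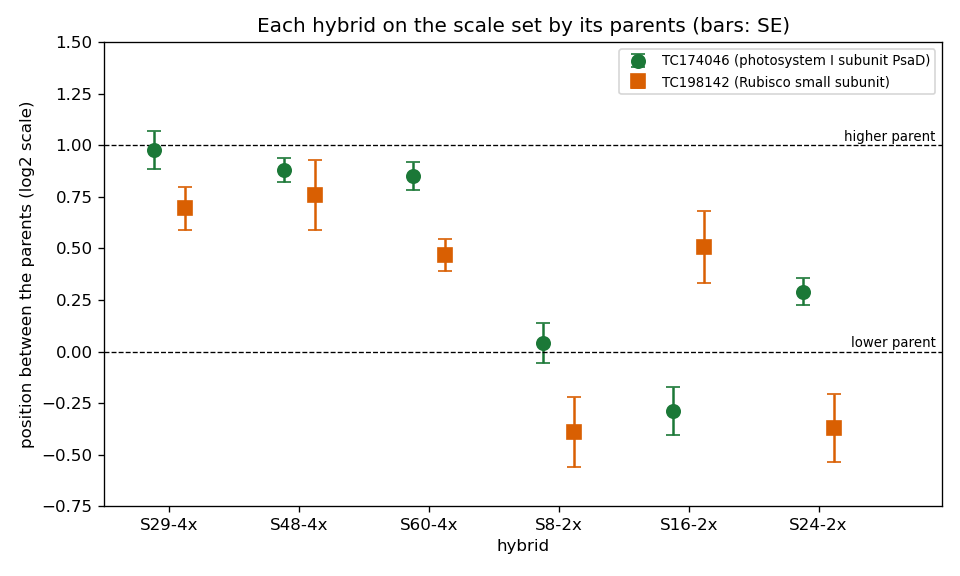
Position of each hybrid between its parents on the log2 scale (0, mean of the lower parent; 1, mean of the higher parent) for both genes, with SE from the spread of the arrays. The 4x hybrids are between 0.85 and 0.98 for TC174046 and between 0.47 and 0.76 for TC198142, and S16-2x is the lowest hybrid for TC174046 (-0.29) and the highest 2x hybrid for TC198142 (0.51).

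In relation to the parental mean, TC174046 was higher in the 4x hybrids and lower in the 2x hybrids. Over 9 arrays each, the log2 intensity was 13.88 ± 0.15 for 4x and 12.59 ± 0.38 for 2x hybrids (SD). The difference was 1.29 or 2.45-fold and no 4x array overlapped with a 2x array. This was so for 1.34% of all genes, with 4x higher for 0.595%, and the median of 4x minus 2x over all genes was -0.01. The 4x mean was 0.59 above the parental mean on the log2 scale, and the 2x mean differed from it by -0.71. For TC198142 the log2 intensity was 7.98 ± 0.60 for 4x and 5.81 ± 1.42 for 2x hybrids, which differed by 2.17. From the parental mean the 4x mean differed by 0.42, or 0.02 with values below background set to it, and the 2x mean by -1.75. Without replicate 2 of PG-F9 the 4x value was -0.01, but the remaining parental arrays had equal weight there, so PG-F9 counted less. With both parents weighted equally in that setting, S29-4x, S48-4x and S60-4x differed from the parental mean by 0.418, 0.613 and -0.254. With all arrays these differences were 0.579, 0.775 and -0.092. The 4x and 2x arrays overlapped for TC198142, because replicates 2 and 3 of S16-2x lay within the range of the 4x hybrids. Against S8-2x, the level was at least 3.48-fold higher in S29-4x, 3.99-fold in S48-4x and 2.19-fold in S60-4x. Against S24-2x it was at least 4.18-fold, 4.78-fold and 2.62-fold higher. The study also measured TC198142 by quantitative RT-PCR. It reports that the array differences between 2x and 4x hybrids held for all genes measured in this way.

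The difference between ploidy levels depended on the genotypes in it. Without S16-2x it was 1.07 for TC174046 and 3.06 for TC198142. With values below the highest negative control set to that control, the log2 difference of TC198142 was 1.31 and that between PG-F9 and 12P was -2.18.

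The order of the 8 genotypes can be read from these levels. For TC174046 it was PG-F9, S29-4x, S48-4x, S60-4x, S24-2x, S8-2x, 12P and S16-2x. Neighbours overlapped except for S60-4x and S24-2x, S24-2x and S8-2x, and 12P and S16-2x. The widest gap between neighbours was between S60-4x and S24-2x, with 0.82 on the log2 scale. For TC198142 the order was 12P, S48-4x, S29-4x, S16-2x and S60-4x, all overlapping with their neighbours, and then the 3 genotypes at background, which have no order.

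Sib hybrids of the same ploidy level were compared to ask how much single plants of a cross differ. These comparisons were not used to make the study's list. However, the same hybrid levels entered the comparisons with the parents, which were used in choosing the genes. The p-values are thus not free of that choice. The sib comparisons were tested with limma over all 41527 genes, in a fit of the 3 + 3 arrays compared. A gene was called at an absolute log2 difference over 1 and an adjusted p (Benjamini-Hochberg) under 0.05.

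Between the 2x hybrids, the Rubisco small subunit gene was called in 2 of 3 comparisons. It was lower in S8-2x than in S16-2x (log2 difference -2.69, SE 0.40, adjusted p = 0.0138 from limma), where 2.51% of all genes were called, 1.44% with S8-2x lower. As a bound, it was at least 2.37-fold lower in S8-2x. It was higher in S16-2x than in S24-2x (log2 difference 2.63, SE 0.41, adjusted p = 0.0482 from limma), at least 2.85-fold, where 0.864% of all genes were called, 0.53% with S16-2x higher. S8-2x and S24-2x, both at background, differed by -0.06 (SE 0.23, adjusted p = 0.896 from limma), a comparison that background limits and in which 3.42% of all genes were called.

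Both calls were lost in some settings. With S8-2x minus S16-2x, the adjusted p from limma was 0.0683 without replicate 1 of S8-2x, 0.0644 without replicate 2 of S8-2x and 0.0624 without replicate 2 of S16-2x. With S16-2x minus S24-2x it was between 0.119 and 0.182 without replicate 2 or 3 of either hybrid. In these fits the log2 difference was between 2.273 and 2.596. Of 41527 genes, 1 was called without replicate 3 of S24-2x and 0 in the others, against 359 with all arrays. The loss of this call was thus not particular to TC198142. In the fits of S8-2x minus S16-2x above, 627, 550 and 577 genes were called, against 1043 with all arrays. With values set to the highest negative control the differences were -1.25 (adjusted p = 0.0748 from limma) and 1.51 (adjusted p = 0.0776 from limma). When limma was fitted to the 24 arrays jointly, the adjusted p was 0.000157 and 0.000491, with 1442 and 1685 of all genes called. These are the numbers of genes that the study reports for the same comparisons.

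The PsaD gene was not called between any 2x hybrids, since its differences were smaller than the threshold of 1. The largest was that of S16-2x minus S24-2x (-0.85, SE 0.12, adjusted p = 0.0416 from limma), which passed the threshold on p but not that on size. S8-2x minus S16-2x was 0.48 (SE 0.14, adjusted p = 0.104 from limma) and S8-2x minus S24-2x was -0.36 (SE 0.12, adjusted p = 0.124 from limma). The arrays did not overlap in any of these 3 comparisons, which was so for 26.9%, 31.3% and 29.3% of all genes in S8-2x against S16-2x, S8-2x against S24-2x and S16-2x against S24-2x. S16-2x thus had the lowest level of the PsaD gene and the highest of the Rubisco small subunit gene among the 2x hybrids.

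Between the 4x hybrids neither gene was called in any of 3 comparisons, in which 3.16%, 1.54% and 3.24% of all genes were called. For TC174046 the differences were 0.14 (SE 0.14) for S29-4x minus S48-4x, 0.18 (SE 0.14) for S29-4x minus S60-4x and 0.04 (SE 0.12) for S48-4x minus S60-4x, with adjusted p from 0.524 to 0.895 from limma. For TC198142 the same differences were -0.20 (SE 0.40), 0.67 (SE 0.20) and 0.87 (SE 0.37), with adjusted p of 0.839, 0.130 and 0.259 from limma. Without replicate 2 of S48-4x, its low array, TC198142 was higher in S48-4x than in S60-4x (log2 difference 1.31, adjusted p = 0.00718 from limma), a direction called for 1.46% of all genes in the same fit. With any other single array of these hybrids omitted, it was not called (adjusted p from 0.385 to 0.509 from limma).

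**Figure D3:**
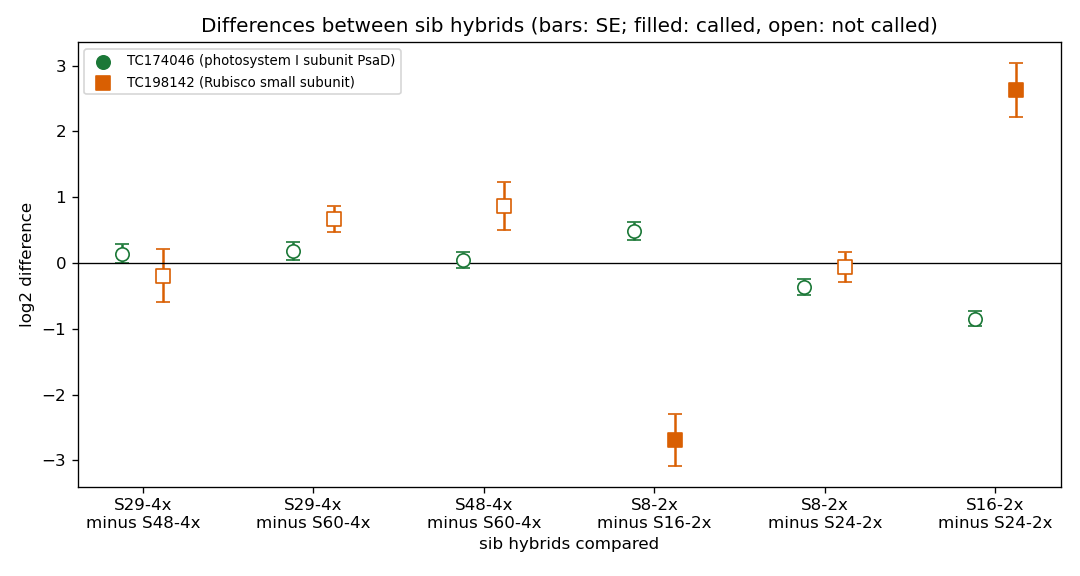
Log2 difference between sib hybrids of the same ploidy level for both genes, with SE from limma. Filled symbols passed both thresholds, which only TC198142 in the comparisons of S16-2x with its sibs did (-2.69 and 2.63).

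The 2 genes also differed in the spread of their replicates. The SD of log2 values around the genotype means, over 24 arrays, was 0.14 for TC174046 and 0.53 for TC198142, against a median of 0.25 over all genes. It was between 0.31 (TC182622) and 0.63 (TC183902) for the 9 other photosynthesis genes described below, a range that holds TC198142. TC198142 was also above background on only 15 of these arrays. The SD of TC198142 within a genotype was between 0.13 in S60-4x and 0.83 in S16-2x.

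The other photosynthesis genes listed here are the 9 whose annotation in the study's tables names chlorophyll a/b binding, light harvesting or the thylakoid. Of these, 7 encode chlorophyll a/b binding proteins, the antenna proteins that pass light energy to the photosystems. TC182622 is similar to a thylakoid formation protein and TC199557 has a short match to an algal light-harvesting protein. The study chose these genes on the same samples, so their direction is not independent evidence. All 9 had a lower mean in PG-F9 than in 12P, the direction of TC198142 and the opposite of TC174046. The log2 difference was between -2.67 (TC188202) and -0.24 (TC182622), with a median of -1.58, and for 6 of the 9 the arrays of the parents did not overlap with PG-F9 lower, as for 20.9% of all genes. The mean was higher in the 4x than in the 2x hybrids for 8 of 9 genes, with a median log2 difference of 1.16. The exception was TC199557 (-0.43). For all 7 chlorophyll a/b binding protein genes, the mean of each 4x hybrid was above that of each 2x hybrid. TC174046 shared this pattern, and TC198142 did not, because of S16-2x. For these comparisons of means, the share of all genes was not computed. In 3 of the 9 genes (TC177786, TC183902 and TC195187) every 4x array exceeded every 2x array, as for 0.595% of all genes, although TC183902 was above background on only 15 of 24 arrays.

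**Figure D4:**
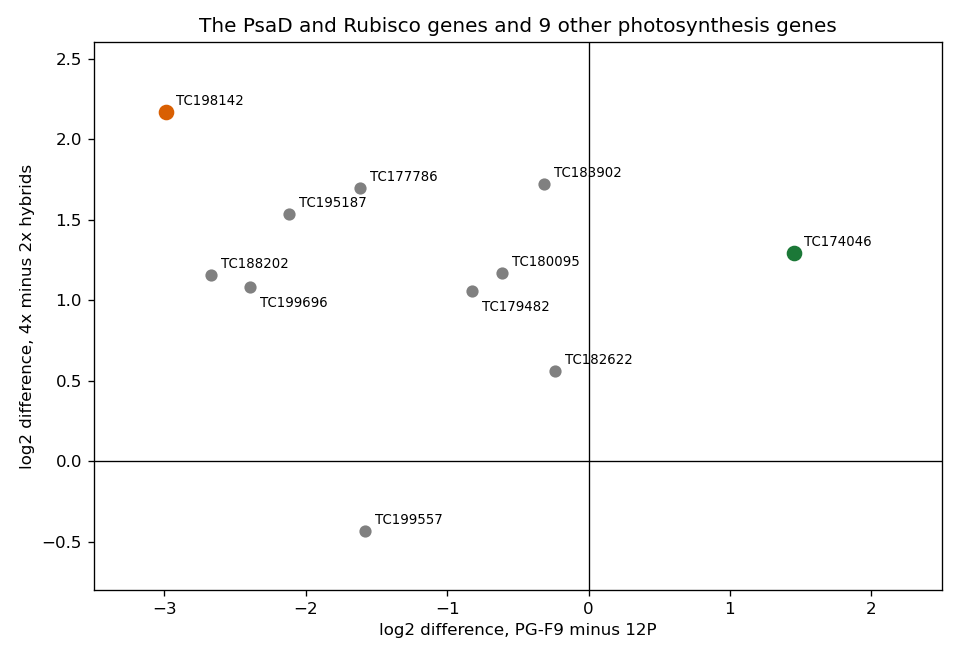
Log2 difference between 4x and 2x hybrids (y axis) against that between PG-F9 and 12P (x axis) for TC174046, TC198142 and 9 other photosynthesis genes (grey). TC174046 is the only point right of 0 on the x axis, and TC199557 (-0.43) is the only point below 0 on the y axis.

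Within ploidy levels, limma called 0 of these 9 genes in each of the 6 sib comparisons, where 0.864% to 3.42% of all genes were called. At an unadjusted p under 0.05 from limma were 16 of their 54 values, against 21.2% of the values of all genes. The joint fit called 3, TC182622 lower in S8-2x than in S24-2x, and TC180095 lower and TC199557 higher in S16-2x than in S24-2x. It called between 771 and 1714 of the 41527 genes in a comparison. The fit by eBayes with trend and robust options also called 3, and between 761 and 1698 of all genes in a comparison. Among the 2x hybrids, S16-2x, the lowest for TC174046, had the lowest mean for 3 of the 7 chlorophyll a/b binding protein genes and S24-2x, the highest for TC174046, for the other 4.

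The genes with genotype means most like those of each gene were found from the root mean square difference of the 8 means on the log2 scale, after centring each gene on its own mean. For TC174046 they were NP7259185, a hypothetical protein (0.20), TC184330 (0.22) and TC201002, weakly similar to a zebrafish protein (0.23), against a median of 0.74 over all genes. The mean of NP7259185 was between 12.37 and 12.46 in the 4x hybrids and between 10.45 and 11.14 in the 2x hybrids, with 12.28 in PG-F9 and 10.84 in 12P. For TC198142 they were TC200334, similar to a DNA-directed RNA polymerase (0.43), TC180337, similar to the chloroplast and mitochondrial RNA polymerase 2 of wood tobacco (0.47), and NP7261742 (0.54), against a median of 1.49. The mean of TC200334 was 11.18 in S16-2x, against 9.04 in S8-2x and 9.49 in S24-2x, and was 9.48 in PG-F9 and 12.48 in 12P. Of the photosynthesis genes, TC177786 (0.84) was the nearest to TC198142, at rank 25 of all genes, and TC183902 (0.54) the nearest to TC174046, at rank 1039. The difference between TC174046 and TC198142 themselves was 1.56.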

How the data were processed

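Gene transcription was measured with 1-colour NimbleGen arrays in 24 leaf samples. The deposited values are linear intensities, which the authors obtained by quantile normalization and RMA summarization of the probes. Here 11 negative control entries were excluded, and log2 intensities of 41527 genes were analysed without a filter. Groups followed the genotype in the labels, and annotations the study's tables. Pairs of sib hybrids were tested by limma (version 3.58.1, R 4.3.3), unpaired as in the study's methods and with only the arrays compared. The numbers of called genes that the study reports for these pairs are those of the joint fit of the 24 arrays, an alternative here. SEs of other differences came from the variances of the arrays. In simulated data (3 against 3 arrays, 41527 genes), 87% of 200 genes with a log2 change of 2 were called, with 6 false calls. Other values and the plots were made in Python 3.11.15 with numpy 2.4.6, pandas 2.3.3 and matplotlib 3.10.9.

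Both genes, the list of 9 photosynthesis genes and the rules were chosen with earlier results of these data known. The genes named were these, and for both genes the 3 genes with the smallest root mean square difference of genotype means. Alternatives were a second quantile normalization, median centring, a floor at background, leaving out the lowest genes, eBayes with trend and robust options, a joint fit of the 24 arrays, a replicate block, no size threshold, the linear scale, and omission of single arrays or hybrids. The number of arrays limits the precision.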

Additional observations from a re-analysis of the deposited data

Results flagged for a closer look

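TC174046, the PsaD gene, departed from the parental mean in opposite directions at the 2 ploidy levels. All 9 arrays of the 4x hybrids were above it (mean log2 difference 0.587) and all 9 arrays of the 2x hybrids were below it (-0.707). These were 3 arrays of each of 3 hybrids per ploidy level, and the share of all genes with such counts was not computed. The parental mean lay between parents whose arrays did not overlap, so that hybrids near 1 parent fall to 1 side of it. The difference between the levels was not tested, since it was used in choosing the gene. TC198142 did not show this separation, with 5 of 9 arrays of the 4x hybrids above the parental mean and 7 of 9 arrays of the 2x hybrids below it.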

How the results depend on the processing

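Of 288 values recomputed with another processing choice, 242 kept their direction and side of the threshold or moved by less than the spread of the arrays, and of 432 with 1 array omitted, 392 did. These totals include counts of called genes, to which direction, threshold and spread do not apply. The 1043 genes called in S8-2x minus S16-2x became 1442 in the joint fit, which was taken as the same. Without a size threshold they became 1719, which was taken as a change. The causes of the changes were not tested, except where the setting itself shows them. Setting values below the highest negative control to that control, which compresses TC198142, gave -2.181 for PG-F9 minus 12P, 1.313 for 4x minus 2x hybrids, -1.626 and -1.888 for S8-2x and S24-2x minus the parental mean, and positions of 0.272 for S60-4x and 0.327 for S16-2x. S8-2x minus S16-2x was then -1.248 and S16-2x minus S24-2x 1.51, neither called, and S8-2x minus S24-2x turned to 0.262.

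On the linear scale, TC174046 relative to the parental mean (log2 of the ratio) was 0.52 in S29-4x, 0.375 in S48-4x, 0.335 in S60-4x, -0.843 in S8-2x, -1.329 in S16-2x and -0.485 for S24-2x, with positions of -0.149 in S16-2x and 0.192 in S24-2x. TC198142 turned to -0.1 in S29-4x and was 0.191 in S48-4x, -0.803 in S60-4x, -3.354 in S8-2x, -0.543 in S16-2x and -3.295 in S24-2x. Its positions were 0.457 in S29-4x, 0.224 in S60-4x, -0.083 in S8-2x, 0.297 in S16-2x and -0.081 in S24-2x. Without the hybrid S16-2x, 4x minus 2x was 1.072 for TC174046 and 3.058 for TC198142, and 2x minus the parental mean was -0.485 and -2.637. Without S24-2x, TC174046 had 1.495 and -0.908.

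Without a size threshold, TC174046 was called in S16-2x minus S24-2x (-0.846), where 428 of 41527 genes were called, 169 of them lower in S16-2x. In the same setting 1719 genes were called in S8-2x minus S16-2x, 2976 in S8-2x minus S24-2x, 2026 in S29-4x minus S48-4x, 1423 in S29-4x minus S60-4x and 2497 in S48-4x minus S60-4x. In S16-2x minus S24-2x, with 359 genes called, 647 were called with the background floor, 1122 with the trend and robust options and 1685 in the joint fit. The deviations of same-numbered arrays correlated between -0.317 and 0.259 over 18 pairs, so the numbers do not pair the samples. With a replicate block, TC198142 in S16-2x minus S24-2x (2.633) was not called (adjusted p = 0.115 from limma), 5 genes were called there and 647 in S29-4x minus S48-4x, and no other call of either gene changed.

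With single arrays omitted, TC174046 relative to the parental mean ranged from 0.393 to 0.758 in the 4x hybrids and from -0.9 to -0.535 in the 2x hybrids, where the remaining parental arrays had equal weight, and the position of S16-2x from -0.408 to -0.235. The sib differences of TC198142 ranged from -3.147 to -2.334 for S8-2x minus S16-2x, -0.247 to 0.119 for S8-2x minus S24-2x, 2.273 to 3.086 for S16-2x minus S24-2x, -0.639 to 0.123 for S29-4x minus S48-4x and 0.548 to 1.31 for S48-4x minus S60-4x. That of TC174046 ranged from -0.012 to 0.116 for S48-4x minus S60-4x. Called genes numbered 550 to 1656 in S8-2x minus S16-2x, 926 to 2475 in S8-2x minus S24-2x, 0 to 1171 in S16-2x minus S24-2x (0 without replicate 2 or 3 of S16-2x or replicate 2 of S24-2x by limma, with 6371 to 8117 genes at an unadjusted p under 0.05), 768 to 1340 in S29-4x minus S48-4x, 261 to 837 in S29-4x minus S60-4x and 892 to 1570 in S48-4x minus S60-4x. TC198142 at background limits every comparison with PG-F9, S8-2x or S24-2x.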
